A study of Homo sapiens with 12 samples.

Results

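The response to wild-type ETV4 was compared between the prostate cancer cell lines 22Rv1 and PC3, to see which genes responded in a manner that depended on the line and which responded alike in both. The comparison used 8 of the 12 libraries of the study, 4 from each line: 2 from cells infected with a lentivirus carrying eGFP and 2 from cells infected with the same vector carrying wild-type ETV4 and eGFP (ETV4WT). The 4 remaining libraries carry a mutated ETV4 (ETV4AAA, with residues not given in the sources used here) and entered the fit that estimates the spread, but no comparison; their values are set side by side. All groups share the MSCV-IRES-eGFP vector and a sort for living, eGFP-positive cells 1 week after infection, and polyadenylated RNA was sequenced on a NextSeq 500. Each group is 1 established line in culture. The labels do not say whether the 2 replicates of a group came from separate cultures, so the p-values measure only the spread between these libraries.

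PC3 was derived from a bone metastasis and lacks p53. 22Rv1 was derived from the CWR22 xenograft and keeps a set of luminal prostate genes and p53. ETV4, ETV1 and ETV5 form the PEA3 group of the ETS family, transcription factors that bind a short GGAA-centred sequence and act downstream of receptor tyrosine kinases and the ERK kinases. Gene fusions place members of this group under promoters active in the prostate in a subset of prostate tumours.

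The change from eGFP to ETV4WT was taken in each line as a log2 fold change, and the line difference is the log2 change in 22Rv1 minus the log2 change in PC3. A positive line difference, called higher here, therefore stands for a gene whose change was more upward in 22Rv1, and a negative one, called lower, for a gene whose change was more upward in PC3. Of 58302 genes in the table, 23238 passed a filter on low counts and were tested with edgeR's quasi-likelihood test, and a gene was called where its p, adjusted by Benjamini and Hochberg's method across those 23238 genes, was under 0.05. Levels are in CPM, counts relative to the scaled library size, and serve to compare libraries, not genes. The effects in the 2 lines share no library.

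Totals of the 8 libraries lay between 45275349 and 50699208 counts. ETV4 itself (chr17:43527844-43579620, minus strand, GRCh38) stood at 31.2 and 24.9 CPM in 22Rv1 with eGFP and at 385 and 484 CPM with ETV4WT, a log2 change of 3.95 ± 0.37 (SE, adjusted p = 0.000156). In PC3 it stood at 116 and 126 CPM with eGFP and at 215 and 112 CPM in the libraries labelled ETV4WT, a log2 change of 0.43 ± 0.33 (SE, adjusted p = 0.384). Replicate 2 of that group was thus not above the eGFP libraries, and the 2 groups of PC3 overlapped, whereas in 22Rv1 they did not. The line difference of ETV4 was 3.52 ± 0.48 (SE, adjusted p = 0.000601). Counts do not separate the introduced ETV4 from the cell's own, and the part that the ETV4 level of the second PC3 library had in any result below was not tested; every PC3 level or change with ETV4WT below, and every direction drawn from one, is therefore that of the PC3 libraries labelled ETV4WT. The log2 ratio of replicate 1 to replicate 2 had an SD over 11525 genes of 0.394 in the PC3 libraries labelled ETV4WT, 0.0965 in the PC3 eGFP libraries and 0.209 to 0.266 in the 22Rv1 groups.

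The markers of each line were as its label says. A list of 12 markers of 22Rv1 summed to between 2438 and 2621 CPM in the 4 libraries of 22Rv1. In PC3 it summed to 1044 and 1086 CPM with eGFP and to 765 and 660 CPM in the libraries labelled ETV4WT. Of the 12, 4 were at 0 counts in each PC3 eGFP library and 1 in each PC3 library labelled ETV4WT. KLK3, which encodes prostate-specific antigen, was at 0 counts in every PC3 library. TMPRSS2, also on the list, had 0 counts in PC3 with eGFP and 14 in the libraries labelled ETV4WT. Markers of PC3 summed to 407 to 641 CPM in 22Rv1 and to 2060 to 2293 CPM in PC3. Immune cell markers, 18 genes, summed to at most 6.48 CPM in any of the 8 libraries, with CD3D, MS4A1 and TYROBP at 0 in each. Stromal and endothelial markers, 15 genes, summed to 10.6 to 16.5 CPM in 22Rv1 and to 369 to 445 CPM in PC3. Of the 68 genes that were at 20 CPM or more in all 4 libraries of 22Rv1 and at no more than 0.05 CPM in the PC3 eGFP libraries, 17 and 14 exceeded 0.05 CPM in the PC3 libraries labelled ETV4WT, against 9 and 3 in the PC3 ETV4AAA libraries. Their summed level in PC3 went from 0.684 and 0.537 CPM with eGFP to 3.05 and 2.75 CPM, and 8 of the 68 were called lower for the line difference. In the reverse direction, 57 genes were at 20 CPM or more in the 4 libraries of PC3 and at no more than 0.05 CPM in the 22Rv1 eGFP libraries. Of these 57, 9 and 8 exceeded 0.05 CPM in the 22Rv1 ETV4WT libraries and 30 and 25 in the 22Rv1 ETV4AAA libraries. Of the 57, 3 were called higher for the line difference, SPARC, HAPLN1 and KIRREL1, the last named after its values were seen. The 90th percentile of the 68 genes in the PC3 libraries labelled ETV4WT was 0.165% and 0.175% of their 22Rv1 level. For the 57 genes in the 22Rv1 ETV4WT libraries it was 0.112% and 0.0836% of their PC3 level. Several genes that are near 0 in 1 line and abundant in the other are given with both levels below. The part that small amounts of the other line's genes had in those calls was not tested. The share of all counts in a list of 34 cytosolic ribosomal protein genes was 6.33% and 5.94% in 22Rv1 with eGFP, 8.99% and 7.72% in 22Rv1 with ETV4WT, 2.68% and 2.72% in PC3 with eGFP and 2.93% and 2.36% in the PC3 libraries labelled ETV4WT.

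Of the 23238 genes tested, 2903 (12.5%) were called for the line difference, 1144 (4.92%) higher and 1759 (7.57%) lower. Within the lines, 348 genes (1.5%) were called in 22Rv1, of which 246 (1.06%) rose and 102 (0.439%) fell, and 5434 (23.4%) were called in PC3, of which 2958 (12.7%) rose and 2476 (10.7%) fell. Each count of called list members below is to be read beside these shares of all genes. The median size of the log2 change over the 12307 genes at 1 CPM or more in both lines was 0.172 in 22Rv1 and 0.329 in PC3, with a median standard error of 0.166 in each. The fit takes 1 spread per gene over all groups, so these equal standard errors do not show that the lines varied alike. The SDs between replicates given above differed by group. In these bulk libraries, fewer cells that express a gene and less RNA of it per cell cannot be told apart. Leaving out 1 of the 8 libraries gave 1765 line differences without 22Rv1 ETV4WT replicate 1, 1611 without 22Rv1 eGFP replicate 2, 1836 without PC3 ETV4WT replicate 2, 1531 and 1425 without either PC3 eGFP library, and 4342 without PC3 ETV4WT replicate 1. The higher ones were 414 to 659 without any 1 library other than PC3 ETV4WT replicate 1, where they were 2297, and the lower ones 1035 and 1008 without either PC3 eGFP library. In 22Rv1 the 348 calls became 119 without ETV4WT replicate 1 and 122 and 131 without either eGFP library, and in PC3 the 5434 calls became 3253 without ETV4WT replicate 2 and 2870 and 2553 without either eGFP library. Of the calls, 60.6% were lower with the scaling used and 75.6% with upper-quartile scaling, which moved the median line difference of all genes from 0.0237 to -0.156, so that list medians within that shift of 0 carry no direction. The balance of the calls turned with the replicate number as a block, to 1865 higher and 1793 lower line differences and to 3010 risen and 3286 fallen genes in PC3. It turned also without PC3 ETV4WT replicate 1, to 2297 higher and 2045 lower and to 3077 risen and 3188 fallen in PC3.

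Most line-dependent genes were called in PC3. Of the 2903, 2389 were called in PC3 alone (1536 rose and 853 fell there), 110 in 22Rv1 alone (78 rose, 32 fell), 66 in both lines in opposite directions, 23 in both in the same direction and 315 in neither. The 2389 became 1435 without 22Rv1 eGFP replicate 2, 1502 without PC3 ETV4WT replicate 2, 1277 and 1172 without either PC3 eGFP library and 3622 without PC3 ETV4WT replicate 1. Among the 12307 genes at 1 CPM or more in both lines, 1907 (15.5%) were called for the line difference, 935 higher and 972 lower, and among 3869 genes at that level in 1 line alone, 705 (18.2%) were. Protein-coding genes made up 83.8% of the 2903 and 67.1% of the genes tested. Across the 12307 genes the log2 changes of the 2 lines had a Pearson r of -0.118 and a Spearman rho of -0.133; genes are not independent replicates, and the value is a description.

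**Figure D1:**
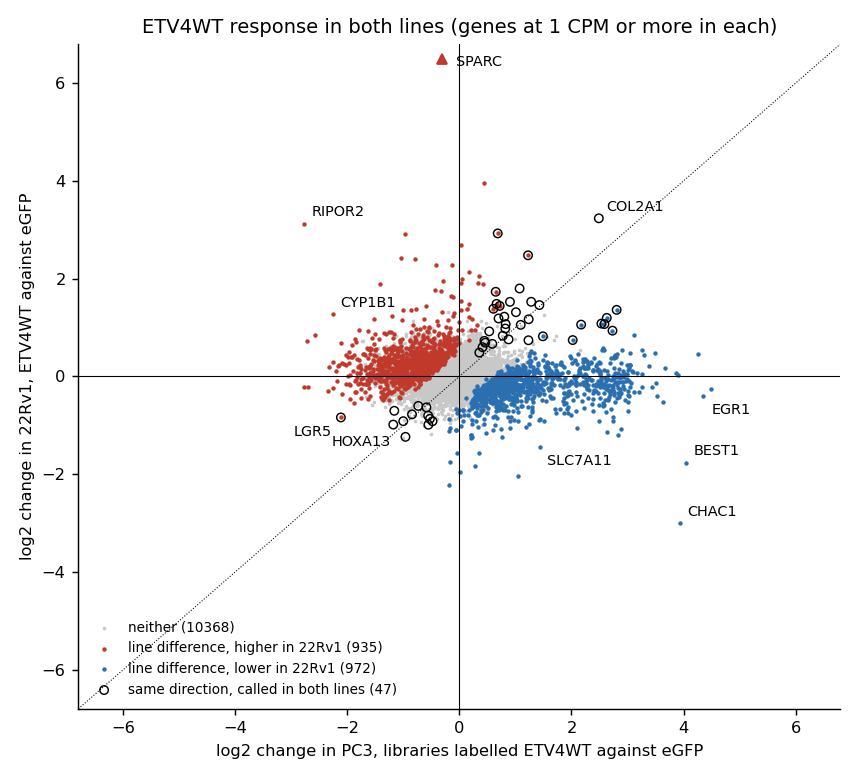
Log2 change from eGFP to ETV4WT in PC3 (x axis, libraries labelled ETV4WT) and in 22Rv1 (y axis) for the 12307 genes at 1 CPM or more in both lines, each point 1 gene. Red points, 935 genes called higher, lie above the dotted line of equal change and blue points, 972 genes called lower, below it; the blue points spread along the PC3 axis, the 47 circled genes changed in the same direction in both lines, and SPARC lies beyond the upper edge of the plot and is drawn as a triangle on it.

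Among genes expressed in both lines, the largest positive line differences included those of SPARC, RIPOR2, KCNN4, CYP1B1, FAM131B and P2RY1, each more upward in 22Rv1. SPARC, a secreted protein that binds collagen (chr5:151661096-151687165, minus strand), had 0.0205 and 0 CPM in 22Rv1 with eGFP and 69.9 and 65.2 CPM with ETV4WT. The pooled counts were 6402 against 1, a ratio of 6564 with a 95% interval of 1178 to 259312 that covers counting error only. In PC3 SPARC stood at 70.1 and 68.8 CPM with eGFP and 58.7 and 52.9 CPM in the libraries labelled ETV4WT, which did not pass the test (log2 -0.32 ± 0.12 SE, adjusted p = 0.0885). SPARC was thus near 0 in 1 group of the 4, and in 22Rv1 with ETV4WT it came to levels close to those of PC3. Its line difference was called (adjusted p = 1.93e-09), but the fitted size depends on the group with 1 count and is not given. With ETV4AAA, against the same eGFP libraries, it stood at 2230.3 and 2225 CPM in 22Rv1.

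RIPOR2, an inhibitor of the small GTPase RhoA (chr6:24804281-25042170, minus strand), moved in opposite directions. It had 4.35 and 4.51 CPM in 22Rv1 with eGFP and 37.4 and 39.8 CPM with ETV4WT, a rise of log2 3.12 ± 0.16 (SE, adjusted p = 1.65e-06). In PC3 it had 2.82 and 3.42 CPM with eGFP and 0.483 and 0.422 CPM in the libraries labelled ETV4WT, a fall of log2 -2.77 ± 0.19 (SE, adjusted p = 2.42e-06). The lines started at similar levels and ended far apart, with a line difference of 5.90 ± 0.24 (SE, adjusted p = 2.42e-07) and no overlap of groups in either line. CYP1B1, a cytochrome P450 that oxidises oestrogens and polycyclic hydrocarbons (chr2:38066973-38109902, minus strand), started far apart and converged. Its level went from 2.54 and 2.78 CPM to 6.096 and 6.78 CPM in 22Rv1 and from 64.2 and 63.9 CPM to 12.5 and 14.4 CPM in PC3. For CYP1B1 the line difference was 3.53 ± 0.24 (SE, adjusted p = 8.51e-06).

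P2RY1, a receptor for extracellular ADP, rose in 22Rv1 from 7.92 and 9.099 CPM to 44.4 and 46.1 CPM and fell in PC3 from 76.3 and 73.8 CPM to 38.2 and 48.9 CPM, so that the groups of the 2 lines ended near one another (line difference 3.20 ± 0.21 SE, adjusted p = 7.74e-06). FAM131B, a gene of little known function, rose in 22Rv1 from 0.492 and 0.453 CPM to 2.55 and 2.51 CPM and fell in PC3 from 171 and 179 CPM to 97.2 and 73.4 CPM. FAM131B had a line difference of 3.45 ± 0.31 (SE, adjusted p = 3.82e-05). KCNN4, a calcium-activated potassium channel, had a line difference of 3.89 ± 0.55 (SE, adjusted p = 0.000735), from 0.287 and 0.309 CPM to 2.07 and 2.45 CPM in 22Rv1 and from 40.8 and 47.5 CPM to 28.95 and 15.8 CPM in PC3. In the next 2 genes, CREB3L1 and RAB20, more of the difference lay in PC3. CREB3L1, a membrane-bound transcription factor of the secretory pathway, was at 22.5 and 18.1 CPM (eGFP) against 34.3 and 43.8 CPM (ETV4WT) in 22Rv1, which did not pass the test (adjusted p = 0.0564), and fell in PC3 from 91.2 and 103 CPM to 32.6 and 23.8 CPM. For CREB3L1 the line difference was 2.73 ± 0.31 (SE, adjusted p = 0.00014). RAB20, a small GTPase of endosomes, went from 7.89 and 8.66 CPM to 2.19 and 1.61 CPM in PC3 and had a line difference of 2.81 ± 0.34 (SE, adjusted p = 0.000236). SOD3, the extracellular superoxide dismutase, had 2.61 and 1.81 CPM (eGFP) against 7.58 and 8.78 CPM (ETV4WT) in 22Rv1 and 2.54 and 3.44 CPM (eGFP) against 1.45 and 0.784 CPM (ETV4WT) in PC3. SOD3 had a line difference of 3.30 ± 0.51 (SE, adjusted p = 0.00141).

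The largest negative line differences among genes expressed in both lines included those of CHAC1, BEST1, CACNA2D2, EGR1, SESN2 and ALDH1L2, each more upward in PC3. CHAC1, an enzyme that degrades glutathione (chr15:40952962-40956519, plus strand), had 14.1 and 8.52 CPM in 22Rv1 with eGFP and 1.46 and 1.37 CPM with ETV4WT. In PC3 it had 2.597 and 2.64 CPM with eGFP and 50.5 and 29.4 CPM in the libraries labelled ETV4WT. The 2 lines exchanged their order, and the line difference was -6.93 ± 0.63 (SE, adjusted p = 4.11e-05). Its fall within 22Rv1, log2 -3.00 ± 0.45 (SE, adjusted p = 0.00505), was not called without either 22Rv1 ETV4WT library or 22Rv1 eGFP replicate 1 (adjusted p of up to 0.142), whereas its rise in PC3, log2 3.93 ± 0.45 (SE, adjusted p = 7.46e-05), and the line difference were called in all 8 fits that leave out 1 library.

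BEST1, a chloride channel (chr11:61949821-61965515, plus strand), showed the same exchange at lower levels. It fell in 22Rv1 from 6.58 and 5.41 CPM to 1.502 and 2.02 CPM (log2 -1.76 ± 0.21 SE, adjusted p = 0.00122) and rose in PC3 from 0.362 and 0.387 CPM to 6.17 and 6.25 CPM (log2 4.04 ± 0.26 SE, adjusted p = 2.05e-06). The PC3 libraries labelled ETV4WT ended where 22Rv1 with eGFP had begun, and the line difference was -5.81 ± 0.34 (SE, adjusted p = 4.53e-06). CACNA2D2, an auxiliary subunit of voltage-gated calcium channels, was at 20.3 and 18.1 CPM (eGFP) against 13.2 and 18.8 CPM (ETV4WT) in 22Rv1, where the groups overlapped. In PC3 it rose from 0.443 and 0.559 CPM to 13.1 and 9.45 CPM, and the line difference was -4.75 ± 0.40 (SE, adjusted p = 2.9e-05).

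EGR1, a zinc finger factor induced within minutes of growth factor signals (chr5:138465490-138469315, plus strand), was abundant in 22Rv1, at 146 and 132 CPM with eGFP and 93.4 and 118 CPM with ETV4WT (log2 -0.40 ± 0.15 SE, adjusted p = 0.243). In PC3 it was near 0 with eGFP, at 0.242 and 0.172 CPM, and rose to 4.48 and 4.06 CPM. The rise left PC3 far under the level of 22Rv1 and gave a line difference of -4.74 ± 0.28 (SE, adjusted p = 4.53e-06). TSC22D3, a leucine zipper protein known as a glucocorticoid target, was at 55.9 and 54.3 CPM (eGFP) against 45.2 and 42.8 CPM (ETV4WT) in 22Rv1 and rose in PC3 from 8.15 and 7.5 CPM to 71.9 and 72.4 CPM. For TSC22D3 the line difference was -3.53 ± 0.18 (SE, adjusted p = 1.49e-06). INHBE, which encodes the inhibin beta E subunit, stayed between 1.00 and 1.52 CPM in 22Rv1 and rose in PC3 from 3.62 and 3.76 CPM to 58.2 and 52.5 CPM. INHBE had a line difference of -3.88 ± 0.38 (SE, adjusted p = 6.26e-05). RCAN2, an inhibitor of calcineurin, did likewise, at 6.05 and 6.42 CPM (eGFP) against 6.49 and 6.63 CPM (ETV4WT) in 22Rv1 and from 0.181 and 0.107 CPM to 2.19 and 2.13 CPM in PC3 (line difference -3.80 ± 0.36 SE, adjusted p = 5.11e-05). SDC2, a heparan sulphate proteoglycan, had a line difference of -3.72 ± 0.25 (SE, adjusted p = 7.87e-06).

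**Figure D2:**
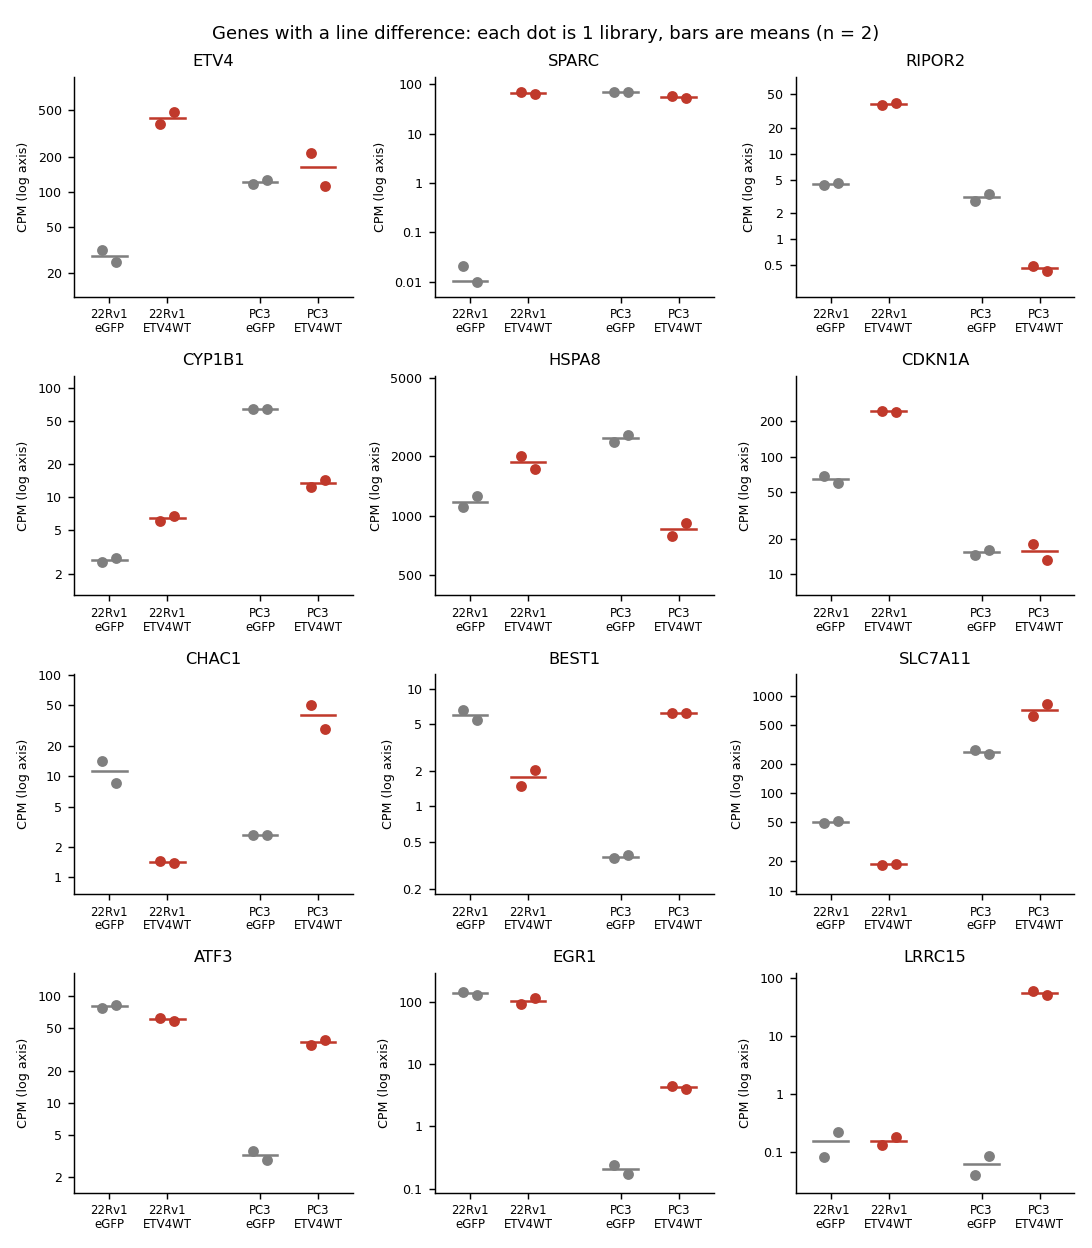
CPM of 12 genes in each library (log axis; dots are libraries, bars are means of 2, grey eGFP and red ETV4WT, values under 0.01 CPM drawn at 0.01), with 22Rv1 on the left and PC3 on the right of each panel. SPARC, RIPOR2, CYP1B1, HSPA8 and CDKN1A are more upward in 22Rv1, while CHAC1, BEST1, SLC7A11, ATF3, EGR1 and LRRC15 are more upward in PC3; ETV4 overlaps between the 2 groups of PC3.

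When amino acids run short or the endoplasmic reticulum is stressed, cells phosphorylate the initiation factor eIF2 alpha, which lowers translation in general and raises that of the factor ATF4. ATF4, often with a C/EBP partner, then switches on genes of amino acid synthesis, transport and tRNA charging. In a list of 32 such genes, all tested, 28 were lower for the line difference and 0 higher by edgeR (also 0 higher at an unadjusted p under 0.05 and by DESeq2 and limma-voom), against 7.57% and 4.92% of all genes, and the count stayed between 24 and 28 when any 1 library was left out. The list's median log2 change was -0.52 in 22Rv1, where 10 members fell and none rose, and 1.39 in PC3, where 28 rose and none fell. All genes had medians of 0.00998 and 0.0. The median line difference of the list was -2.02, beside 0.0237 for all genes.

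The list's summed level was 11176 and 9398 CPM in 22Rv1 with eGFP and 8701 and 9210 CPM with ETV4WT. In PC3 it was 4242 and 4259 CPM with eGFP and 8558 and 8373 CPM in the libraries labelled ETV4WT. With eGFP 22 of the 32 members (68.8%) were higher in 22Rv1 than in PC3, and with ETV4WT 9 of 32 (28.1%) were, beside 49.7% and 50.9% of all genes. Of the 10 falls in 22Rv1, 2 to 5 were called without 1 of the 22Rv1 libraries and 5 without either PC3 eGFP library, so the count in that line rests on each of those libraries.

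Enzymes come first among the members described. ASNS, asparagine synthetase (chr7:97852118-97872542, minus strand), had 4.31 and 4.16 CPM in 22Rv1 with eGFP and 1.68 and 2.33 CPM with ETV4WT, and 1.59 and 1.74 CPM in PC3 with eGFP and 12.6 and 11.9 CPM in the libraries labelled ETV4WT. It was the higher of the 2 lines in 22Rv1 before and in PC3 after. For ASNS the line difference was -3.96 ± 0.32 (SE, adjusted p = 2.51e-05). PSAT1, an enzyme of serine synthesis, fell in 22Rv1 from 223 and 254 CPM to 132 and 124 CPM and rose in PC3 from 198 and 193 CPM to 469 and 575 CPM. PSAT1 had a line difference of -2.32 ± 0.19 (SE, adjusted p = 2.47e-05). ALDH1L2, a mitochondrial folate enzyme, went from 130.1 and 145 CPM to 53.8 and 66.5 CPM in 22Rv1 and from 3.1 and 2.99 CPM to 18.6 and 24.6 CPM in PC3. For ALDH1L2 the line difference was -4.02 ± 0.25 (SE, adjusted p = 5.54e-06).

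SLC7A11, the cystine and glutamate exchanger that feeds glutathione synthesis (chr4:138164097-138242349, minus strand), fell and rose by equal log2 amounts. It fell in 22Rv1 from 48.9 and 52.1 CPM to 18.5 and 18.8 CPM, log2 -1.44 ± 0.14 (SE, adjusted p = 0.000182), and rose in PC3 from 275 and 254 CPM to 615 and 822 CPM, log2 1.44 ± 0.14 (SE, adjusted p = 1.81e-05). The groups overlapped in neither line, and the line difference was -2.88 ± 0.19 (SE, adjusted p = 7.87e-06). SLC7A5, a large neutral amino acid transporter, was the member of highest level that was not called. SLC7A5 had a line difference of -0.81 ± 0.39 (SE, adjusted p = 0.195).

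Regulators of the response were lower as well. ATF3, a stress-induced factor (chr1:212565334-212620777, plus strand), had 77.6 and 81.6 CPM in 22Rv1 with eGFP and 62.4 and 58.1 CPM with ETV4WT. It rose in PC3 from 3.54 and 2.88 CPM to 34.9 and 38.9 CPM, log2 3.52 ± 0.15 (SE, adjusted p = 2.39e-07), and its line difference was -3.92 ± 0.20 (SE, adjusted p = 1.58e-06). SESN2, an inhibitor of mTORC1 that senses leucine, was at 43.9 and 35.2 CPM (eGFP) against 25.7 and 29.6 CPM (ETV4WT) in 22Rv1 and rose in PC3 from 6.86 and 6.92 CPM to 99.98 and 71.2 CPM. For SESN2 the line difference was -4.15 ± 0.41 (SE, adjusted p = 6.5e-05). The ATF4 transcript itself, named after its values were seen, had 762 and 807 CPM (eGFP) against 605 and 524 CPM (ETV4WT) in 22Rv1 and 339.8 and 331 CPM (eGFP) against 713 and 658 CPM (ETV4WT) in PC3. ATF4 had a line difference of -1.51 ± 0.18 (SE, adjusted p = 0.00019).

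**Figure D3:**
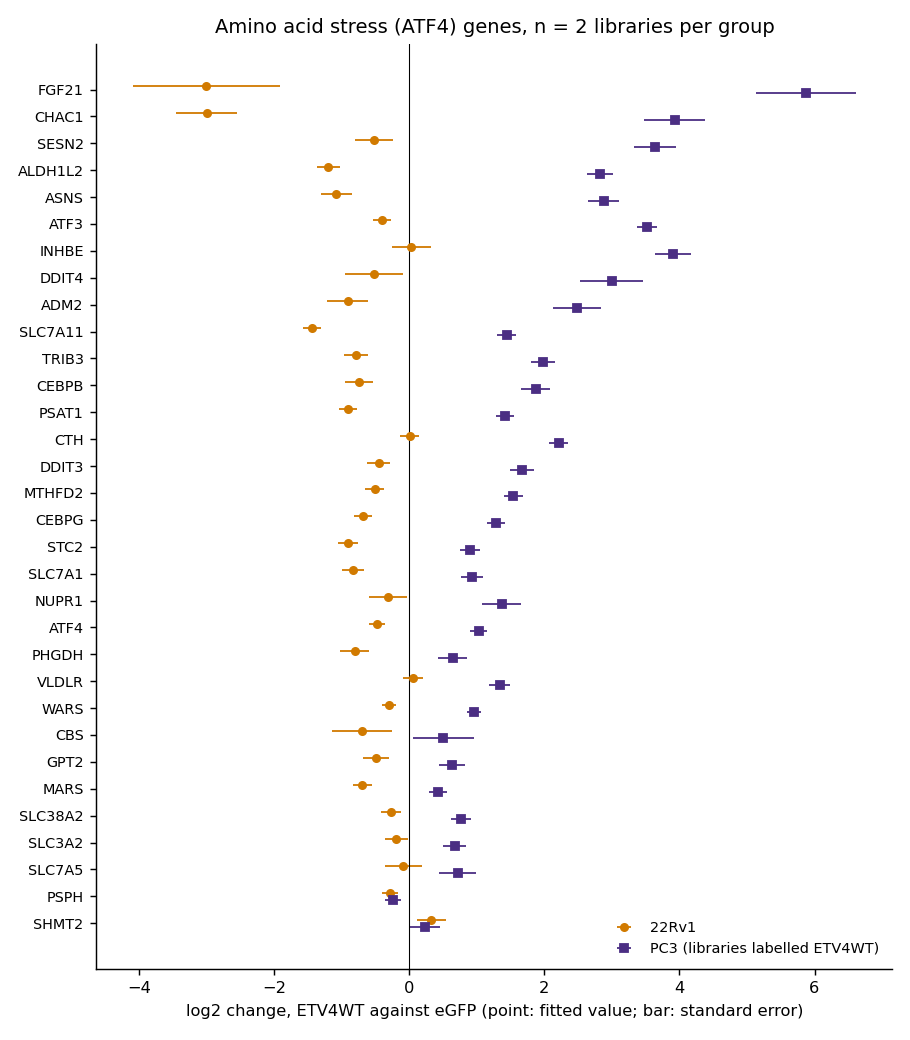
Log2 change from eGFP to ETV4WT of the 32 genes of the amino acid stress list in 22Rv1 and in PC3 (points are fitted changes, bars standard errors). In PC3 28 members rose and in 22Rv1 10 fell, with medians of 1.39 and -0.52.

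The start regions of 3 of these genes are shown because each holds the letters TGATGNAA, the form of the site that ATF4 and C/EBP factors bind together, where N is any base. Each line gives the 250 bases before the gene's start in RefSeq (GRCh38.p14), 5′ to 3′ on the gene's strand, with the match in capitals. CHAC1 lies at chr15:40953221-40953470 on the plus strand and its match reads on the opposite strand, ASNS at chr7:97872409-97872658 on the minus strand and ATF3 at chr1:212565157-212565406 on the plus strand. The first base of the match is 209, 68 and 191 bases before the start, in that order.
CHAC1: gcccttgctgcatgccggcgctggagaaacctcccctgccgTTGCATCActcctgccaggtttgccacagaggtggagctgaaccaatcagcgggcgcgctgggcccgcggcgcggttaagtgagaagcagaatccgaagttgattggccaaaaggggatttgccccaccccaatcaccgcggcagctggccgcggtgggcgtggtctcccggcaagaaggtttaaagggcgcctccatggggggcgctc
ASNS: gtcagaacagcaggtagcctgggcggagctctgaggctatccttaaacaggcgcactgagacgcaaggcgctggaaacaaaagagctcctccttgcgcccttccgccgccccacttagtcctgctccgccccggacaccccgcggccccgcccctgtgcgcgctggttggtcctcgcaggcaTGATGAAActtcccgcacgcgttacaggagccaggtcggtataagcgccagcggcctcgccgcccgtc
ATF3: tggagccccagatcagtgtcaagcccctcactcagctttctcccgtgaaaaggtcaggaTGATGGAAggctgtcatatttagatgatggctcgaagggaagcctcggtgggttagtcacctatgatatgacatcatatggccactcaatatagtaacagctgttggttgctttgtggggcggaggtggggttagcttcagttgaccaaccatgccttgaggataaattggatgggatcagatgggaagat
Both strands of windows of 250 bases before to 50 after the start were searched. The letters were present in 6 of the 23 list members with a window (26.1%), namely ASNS, ATF3, CHAC1, FGF21, SLC3A2 and SLC7A1, which were all called lower. They were present in 266 of all 13035 windows of tested genes (2.04%), in 41 of 1132 of genes called lower (3.62%) and in 12 of 840 of genes called higher (1.43%). A match is a description of letters and not of binding.

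The unfolded protein response, which meets misfolded protein in the endoplasmic reticulum, did not move as one list. Of 21 genes, 4 were higher and 4 lower for the line difference, with a median of 0.30. The 4 higher ones were 1 or 2 in every fit that left out 1 library other than PC3 ETV4WT replicate 1. Among the 4 lower ones were ERN1, XBP1 and HERPUD1. ERN1, which encodes the sensor IRE1 alpha, had 19.6 and 17.8 CPM (eGFP) against 12 and 14.5 CPM (ETV4WT) in 22Rv1 and rose in PC3 from 17.6 and 16.6 CPM to 57.98 and 64.5 CPM. For ERN1 the line difference was -2.34 ± 0.21 (SE, adjusted p = 4.11e-05). XBP1, the factor whose messenger RNA that sensor splices, rose in PC3 from 55.96 and 57.96 CPM to 177 and 201 CPM beside 199.6 and 216 CPM (eGFP) against 259 and 229 CPM (ETV4WT) in 22Rv1. XBP1 had a line difference of -1.5 ± 0.16 (SE, adjusted p = 0.000116). HERPUD1, of the degradation machinery of that compartment, rose in PC3 from 65.99 and 66.6 CPM to 157 and 175 CPM and had a line difference of -1.24 ± 0.15 (SE, adjusted p = 0.000291).

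Heat shock chaperones, which fold proteins in the cytosol under the control of HSF1, went the other way. Of 22 genes, 13 were higher and 1 lower for the line difference, and 20 had a positive one, with a median of 0.94. The 13 became 7 and 8 without either PC3 eGFP library, and 8 with upper-quartile scaling. In PC3 12 fell and 1 rose, beside 10.7% and 12.7% of all genes, and in 22Rv1 1 rose, beside 1.06%. The summed level went from 5013 and 5594 to 7281 and 6564 CPM in 22Rv1 and from 15882 and 16228 to 9943 and 11379 CPM in PC3. HSPA8, the constitutive chaperone of the HSP70 family (chr11:123057489-123063230, minus strand), had 1103 and 1251 CPM (eGFP) against 2019.9 and 1731 CPM (ETV4WT) in 22Rv1 and fell in PC3 from 2375 and 2568 CPM to 787 and 921 CPM. PC3 held more of it with eGFP and 22Rv1 more of it with ETV4WT, and the line difference was 2.20 ± 0.20 (SE, adjusted p = 4.82e-05). Its co-chaperones DNAJA1 and DNAJB1, which hand clients to HSP70, had line differences of 1.35 ± 0.21 (SE, adjusted p = 0.00164) and 1.02 ± 0.16 (SE, adjusted p = 0.00157). HSPA1A, the stress-inducible member, fell in PC3 from 35.5 and 45.4 CPM to 7.396 and 6.17 CPM and had a line difference of 3.42 ± 0.36 (SE, adjusted p = 9.78e-05); it is nearly identical to HSPA1B, and reads of the 2 copies may have been assigned to either.

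Genes of glycolysis and of the response to low oxygen, which the factor HIF1 raises, were also mostly higher. Of 28 genes, 16 were higher and 2 lower for the line difference, 26 had a positive one, and the median was 0.98. In 22Rv1 5 rose and none fell, beside 1.06% and 0.439% of all genes. In PC3 10 fell and 2 rose, beside 10.7% and 12.7%. The 5 became 3 or fewer without either PC3 eGFP library, either 22Rv1 eGFP library or 22Rv1 ETV4WT replicate 1, and the 10 became 5 or 6 without either PC3 eGFP library or PC3 ETV4WT replicate 2. The 16 became 9 or 10 when either PC3 eGFP library or any 1 of the 4 libraries of 22Rv1 was left out. SLC2A1, the glucose transporter GLUT1, had 85.5 and 68.4 CPM (eGFP) against 108 and 122 CPM (ETV4WT) in 22Rv1 and fell in PC3 from 77.7 and 82.4 CPM to 35.1 and 27.9 CPM. For SLC2A1 the line difference was 1.92 ± 0.24 (SE, adjusted p = 0.000334). The lines had similar levels with eGFP and separated with ETV4WT. PFKFB4, which makes the activator of phosphofructokinase, followed with 36.8 and 27.7 CPM (eGFP) against 54.2 and 54.99 CPM (ETV4WT) in 22Rv1 and 30.6 and 36.2 CPM (eGFP) against 11.5 and 6.75 CPM (ETV4WT) in PC3 (line difference 2.63 ± 0.35 SE, adjusted p = 0.000435). CA12, a membrane carbonic anhydrase, was 26.9 and 28.5 CPM (eGFP) against 43.8 and 47.8 CPM (ETV4WT) in 22Rv1 and fell in PC3 from 149 and 152 CPM to 81.6 and 82.8 CPM (line difference 1.60 ± 0.15 SE, adjusted p = 5e-05). Of the 2 lower members, SLC2A3, another glucose transporter, rose in PC3 (log2 4.09, adjusted p = 0.000234). In 22Rv1 SLC2A3 had 1 count with ETV4WT against 10 with eGFP. Its line difference was called lower (adjusted p = 0.0018), but the fitted size depends on the group with 1 count and is not given. The ribosomal protein share given above was also higher in both ETV4WT libraries of 22Rv1 than in its eGFP libraries, and its part in the heat shock and hypoxia results was not tested.

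**Figure D4:**
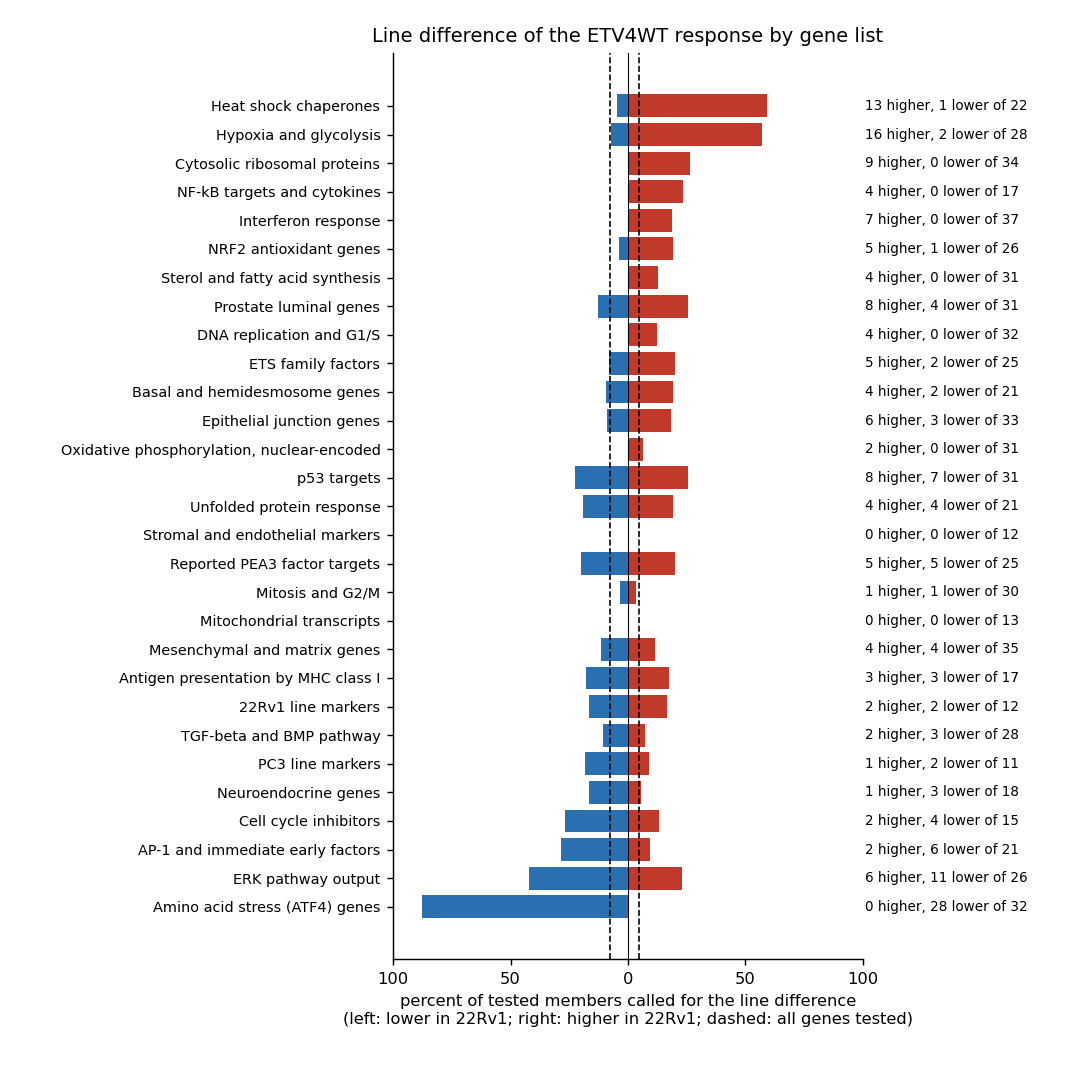
Percent of the tested members of each gene list called for the line difference, higher to the right in red and lower to the left in blue, for lists with 11 or more tested genes. Dashed lines mark the 4.92% and 7.57% of all genes tested; the amino acid stress list reaches farthest to the left and the heat shock and hypoxia lists farthest to the right.

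The 3 PEA3 factors differed among themselves. ETV5 (chr3:186046308-186110318, minus strand) fell in 22Rv1 from 12.6 and 13.1 CPM to 5.77 and 5.06 CPM (log2 -1.24 ± 0.13 SE, adjusted p = 0.000413) and rose in PC3 from 167 and 168 CPM to 268 and 301 CPM (log2 0.76 ± 0.12 SE, adjusted p = 0.000923). No library of either group overlapped in either line, and the line difference was -2.01 ± 0.18 (SE, adjusted p = 3.88e-05). ETV1 fell in 22Rv1 from 23.4 and 24.7 CPM to 11.2 and 11.9 CPM, log2 -1.05 ± 0.13 (SE, adjusted p = 0.0017), and was at 80.04 and 77.8 CPM (eGFP) against 63.3 and 76.6 CPM (ETV4WT) in PC3. Its line difference of -0.88 ± 0.19 (SE, adjusted p = 0.00938) was not called without either PC3 eGFP library (adjusted p of up to 0.0648). Of 25 genes of the ETS family, 5 were higher and 2 lower, a median of 0.12, and the 5 became 3 without any 1 library other than PC3 ETV4WT replicate 1. The epithelial ETS factors ELF3 and EHF fell in PC3, from 15.1 and 16.3 CPM to 4.27 and 2.67 CPM and from 84.3 and 77.02 CPM to 28.1 and 34.3 CPM. In 22Rv1 ELF3 had 29.4 and 21.7 CPM (eGFP) against 28.6 and 30.3 CPM (ETV4WT) and EHF 73.2 and 86.5 CPM (eGFP) against 73.5 and 75.8 CPM (ETV4WT), and their line differences were 2.38 ± 0.35 (SE, adjusted p = 0.00103) and 1.27 ± 0.20 (SE, adjusted p = 0.00149).

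Genes that ERK signalling raises, many of which feed back on it, split by line. Of 26, 6 were higher and 11 lower for the line difference, with a median of -0.70. In 22Rv1 6 rose and 1 fell, where 1.06% of all genes rose, and in PC3 14 rose and 2 fell, where 12.7% of all genes rose. DUSP4, a nuclear phosphatase that inactivates ERK, rose in 22Rv1 from 7.45 and 7.597 CPM to 34.9 and 37.8 CPM and was at 94.4 and 94.8 CPM (eGFP) against 87.5 and 86.1 CPM (ETV4WT) in PC3. DUSP4 had a line difference of 2.40 ± 0.16 (SE, adjusted p = 7.87e-06). HBEGF, a ligand of the EGF receptor, was at 3.12 and 2.74 CPM (eGFP) against 2.61 and 3.18 CPM (ETV4WT) in 22Rv1 and rose in PC3 from 14.8 and 14.01 CPM to 80.3 and 86.7 CPM. For HBEGF the line difference was -2.55 ± 0.23 (SE, adjusted p = 3.88e-05). Each of the pair changed in 1 line and not detectably in the other. Of the factors of the AP-1 group and other immediate early genes, 21 in all, 6 were lower and 2 higher, beside 7.57% and 4.92% of all genes. The 2 higher ones were not called in most fits that left out 1 library, with 1 or none left in all but the fit without PC3 ETV4WT replicate 1. FOS, which pairs with JUN proteins, was at 115 and 101.2 CPM (eGFP) against 80.9 and 88.9 CPM (ETV4WT) in 22Rv1 and rose in PC3 from 0.242 and 0.387 CPM to 1.47 and 1.13 CPM. FOS had a line difference of -2.40 ± 0.36 (SE, adjusted p = 0.00108). JUN rose in PC3 from 37.1 and 39.1 CPM to 124 and 105 CPM beside 66.8 and 55.9 CPM (eGFP) against 64.5 and 74.9 CPM (ETV4WT) in 22Rv1 (line difference -1.40 ± 0.24 SE, adjusted p = 0.00273).

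Genes reported elsewhere as targets of PEA3 factors divided evenly, 5 of 25 higher and 5 lower, with a median of -0.08. The higher 5 became 3 without any 1 library other than PC3 ETV4WT replicate 1, and the lower 5 became 2 or 3 without either PC3 eGFP library, 22Rv1 eGFP replicate 2 or 22Rv1 ETV4WT replicate 2. TWIST1, a mesenchymal factor, rose in 22Rv1 from 10.1 and 9.33 CPM to 25.2 and 25.3 CPM and fell in PC3 from 5.25 and 5.39 CPM to 2.88 and 3.34 CPM. For TWIST1 the line difference was 2.16 ± 0.18 (SE, adjusted p = 2.73e-05). SOX9, a factor of prostate progenitors, rose in 22Rv1 from 34.03 and 30.7 CPM to 65.3 and 79.5 CPM and was at 95.3 and 95.7 CPM (eGFP) against 78.8 and 86.5 CPM (ETV4WT) in PC3 (line difference 1.37 ± 0.20 SE, adjusted p = 0.000851). CDH3, the cadherin of basal epithelium, was at 88.2 and 76.3 CPM (eGFP) against 73.2 and 83.9 CPM (ETV4WT) in 22Rv1 and fell in PC3 from 135 and 149.9 CPM to 45.3 and 34.3 CPM (line difference 1.77 ± 0.27 SE, adjusted p = 0.00123). HEY1, a Notch target, was at 1.83 and 2.31 CPM (eGFP) against 1.81 and 1.67 CPM (ETV4WT) in 22Rv1 and rose in PC3 from 74.3 and 78.2 CPM to 136 and 153 CPM (line difference -1.17 ± 0.21 SE, adjusted p = 0.00402).

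For p53 targets the comparison is also one of a line with p53 and a line without it. Of 31, 9 rose and none fell in 22Rv1, where 28 had a positive change and the median was 0.53, and in PC3 9 rose and 3 fell, with a median of 0.02. Over all genes tested 1.06% rose in 22Rv1 and 12.7% in PC3. For the line difference 8 were higher and 7 lower, with a median of 0.48. The 9 in 22Rv1 became 3 or 4 without either 22Rv1 eGFP library or ETV4WT replicate 1, and the 8 higher ones became 2 to 5 without any 1 library other than PC3 ETV4WT replicate 1. CDKN1A, which encodes the cell cycle inhibitor p21 (chr6:36676460-36687339, plus strand), rose in 22Rv1 from 68.6 and 59.5 CPM to 242 and 241 CPM, log2 1.92 ± 0.16 (SE, adjusted p = 5.24e-05). In PC3 it was at 14.6 and 16.1 CPM with eGFP and 17.99 and 13.3 CPM in the libraries labelled ETV4WT, where the groups overlapped, and the line difference was 1.89 ± 0.22 (SE, adjusted p = 0.000218). PMAIP1, the death-promoting protein NOXA, which ATF4 can also raise, was at 8.45 and 9.86 CPM (eGFP) against 7.598 and 5.55 CPM (ETV4WT) in 22Rv1 and rose in PC3 from 84.7 and 78.8 CPM to 206 and 251 CPM. PMAIP1 had a line difference of -1.96 ± 0.23 (SE, adjusted p = 0.000207). BTG2, an antiproliferative gene, was higher with ETV4WT in every library of both lines, at 14.6 and 14.7 CPM (eGFP) against 31.7 and 29.8 CPM (ETV4WT) in 22Rv1 and 0.544 and 0.645 CPM (eGFP) against 3.92 and 3.24 CPM (ETV4WT) in PC3. Its change was larger in PC3 (line difference -1.52 ± 0.26 SE, adjusted p = 0.00266).

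Genes of DNA replication and the entry into S phase leaned downward in both lines, with edgeR calls in PC3 alone. Of 32, 21 fell and 1 rose in PC3, with a median of -0.66, beside 10.7% and 12.7% of all genes. In 22Rv1 0 were called by edgeR, 1 had a positive change, the median was -0.30 and 14 were lower at an unadjusted p under 0.05. The list's summed level in 22Rv1 went from 4699 and 4499 CPM with eGFP to 3873 and 3759 CPM with ETV4WT. DESeq2 and limma-voom each called 1 lower in 22Rv1. Without either PC3 eGFP library 13 and 12 fell in PC3. The line difference itself was called in 4, all higher, with a median of 0.38, and in at most 1 of them without either PC3 eGFP library, either 22Rv1 eGFP library or 22Rv1 ETV4WT replicate 1. A fall in PC3 beside no call in 22Rv1 was thus mostly not a called difference between the lines. Of the 15 inhibitors of cyclin-dependent kinases and related genes, 2 were higher and 4 lower, beside 4.92% and 7.57% of all genes. CDKN2B, the inhibitor p15, was at 2.65 and 2.45 CPM (eGFP) against 2.33 and 2.27 CPM (ETV4WT) in 22Rv1 and rose in PC3 from 39.01 and 38.7 CPM to 103 and 116 CPM. For CDKN2B the line difference was -1.65 ± 0.19 (SE, adjusted p = 0.000178). CDKN2C, the inhibitor p18, fell in PC3 from 57.7 and 59.01 CPM to 29.2 and 23.8 CPM beside 53.5 and 48.3 CPM (eGFP) against 54.04 and 50.4 CPM (ETV4WT) in 22Rv1 (line difference 1.17 ± 0.19 SE, adjusted p = 0.002). Of 30 genes of mitosis, 1 was higher and 1 lower, beside the same shares of all genes. Counts this small are not read as a difference from those shares.

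Interferon-stimulated genes, which the factor complex ISGF3 switches on through a short repeated motif, were higher in 7 of 37 and lower in 0 by edgeR (1 at an unadjusted p under 0.05, 1 by DESeq2 and 0 by limma-voom), and 28 had a positive line difference, with a median of 0.46. In PC3 16 fell and none rose, beside 10.7% and 12.7% of all genes, with a median of -0.51. In 22Rv1 1 rose, beside 1.06%. Without either PC3 eGFP library 9 fell in PC3 and 4 were higher for the line difference, as were 4 without 22Rv1 ETV4WT replicate 1. OAS3, a synthase of the antiviral signal 2-5A (chr12:112938352-112973249, plus strand), was at 68.1 and 64.4 CPM (eGFP) against 39.7 and 51.5 CPM (ETV4WT) in 22Rv1 and fell in PC3 from 34.2 and 36.5 CPM to 10.8 and 8.32 CPM. Both lines held less with ETV4WT in every library, and the change in PC3 was the larger (line difference 1.35 ± 0.25 SE, adjusted p = 0.00418). Its relative OAS1 fell in PC3 from 13.1 and 13.2 CPM to 2.14 and 2.09 CPM and stayed under 1 CPM in 22Rv1 (line difference 3.59 ± 0.45 SE, adjusted p = 0.00033). CMPK2, a nucleotide kinase of the antiviral response, fell in PC3 from 6.64 and 6.47 CPM to 2.56 and 2.47 CPM beside 6.38 and 6.57 CPM (eGFP) against 5.64 and 4.74 CPM (ETV4WT) in 22Rv1 (line difference 1.06 ± 0.22 SE, adjusted p = 0.00913). IFIT1, named after its values were seen, had 58.8 and 57.2 CPM (eGFP) against 22.8 and 29.3 CPM (ETV4WT) in PC3 and stayed at or under 0.305 CPM in 22Rv1 (line difference 1.32 ± 0.38 SE, adjusted p = 0.0435). That difference lost its call without either eGFP library of 22Rv1 or PC3, 22Rv1 ETV4WT replicate 1 or PC3 ETV4WT replicate 1 (adjusted p of 0.0529 to 0.362).

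The regions before the starts of OAS3 and IFIT1 are shown because they hold that motif, the interferon-stimulated response element, searched on both strands as the letters GAAA, any 2 bases and GAAA again. Each line gives 250 bases before the RefSeq start (GRCh38.p14), 5′ to 3′ on the gene's strand, with matches in capitals. OAS3 lies at chr12:112938224-112938473 on the plus strand, with matches whose first bases are 143 and 12 before the start. IFIT1 lies at chr10:89392373-89392622 on the plus strand, with matches on the opposite strand at 116 and 103 before the start.
OAS3: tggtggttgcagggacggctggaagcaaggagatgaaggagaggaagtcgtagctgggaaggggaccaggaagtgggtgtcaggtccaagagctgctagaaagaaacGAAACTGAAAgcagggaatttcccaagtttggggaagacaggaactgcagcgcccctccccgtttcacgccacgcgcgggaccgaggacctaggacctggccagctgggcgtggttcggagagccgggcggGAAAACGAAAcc
IFIT1: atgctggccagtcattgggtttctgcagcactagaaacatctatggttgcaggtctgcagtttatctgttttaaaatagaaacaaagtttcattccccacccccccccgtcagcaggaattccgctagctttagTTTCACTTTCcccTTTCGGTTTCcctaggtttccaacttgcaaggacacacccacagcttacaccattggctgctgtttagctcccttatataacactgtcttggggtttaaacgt
In windows of 250 bases before to 50 after the start, 18 of 28 list members (64.3%) and 376 of all 13035 tested genes (2.88%) held the motif. Genes called higher and lower for the line difference held it in 3.21% and 3.18% of windows, near the share of all genes.

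Other immune genes divided by gene. Of 17 genes of antigen presentation by MHC class I, 3 were higher and 3 lower, beside 4.92% and 7.57% of all genes. PSMB8, a subunit of the immunoproteasome, had a line difference of 1.77 ± 0.34 (SE, adjusted p = 0.00552). The 3 lower ones, TAP1, HLA-B and HLA-C, the last pair named after their values were seen, were reduced to 0 or 1 without PC3 eGFP replicate 1 or 2 or without 22Rv1 eGFP replicate 1 or either 22Rv1 ETV4WT library. Of 17 tested targets of NF-kB, 4 were higher and none lower, and 0 or 1 was called in every fit without 1 library other than PC3 ETV4WT replicate 1.

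Genes of prostate luminal cells gave 8 higher and 4 lower of 31, beside 4.92% and 7.57% of all genes, with a median of 0.37. The 8 became 4 or 5 without any 1 library other than PC3 ETV4WT replicate 1, and the 4 became 2 without either PC3 eGFP library. ACPP, the prostatic acid phosphatase, rose in 22Rv1 from 16.2 and 18.1 CPM to 46.5 and 41.6 CPM and fell in PC3 from 2.56 and 2.49 CPM to 1.49 and 1.27 CPM, with no overlap in either line and a line difference of 2.23 ± 0.22 (SE, adjusted p = 6.63e-05). FOXA1, a pioneer transcription factor of luminal cells, was at 298 and 295 CPM (eGFP) against 222 and 253 CPM (ETV4WT) in 22Rv1 and fell in PC3 from 166 and 163 CPM to 58.4 and 65.9 CPM. For FOXA1 the line difference was 1.08 ± 0.17 (SE, adjusted p = 0.00162). HPGD, which breaks down prostaglandins, was at 145 and 177 CPM (eGFP) against 189 and 153 CPM (ETV4WT) in 22Rv1 and rose in PC3 from 241 and 232 CPM to 815 and 1006 CPM. HPGD had a line difference of -1.85 ± 0.23 (SE, adjusted p = 0.000315). PMEPA1, a dampener of TGF-beta signalling, lay between 385 and 481 CPM in 22Rv1 and rose in PC3 from 0 and 0.0645 CPM to 0.762 and 0.703 CPM, 76 counts against 3, a ratio of 23.5 (95% interval 7.75 to 117). SYT4 and SCG3, genes of secretory vesicles on the neuroendocrine list, behaved alike: SYT4 lay between 370 and 532 CPM in 22Rv1 and had 66 counts against 1 in PC3, a ratio of 61.3 (10.6 to 2458). SCG3 lay between 60.8 and 73.4 CPM in 22Rv1 and rose in PC3 from 0.0403 and 0.08596 CPM to 0.576 and 0.724 CPM. For SCG3 the line difference was -3.38 ± 0.39 (SE, adjusted p = 0.000182). Of the 18 neuroendocrine genes tested, 3 were lower and 1 higher. These low levels in PC3 stand beside the small amounts of 22Rv1 genes in the same libraries described above, and the part of that in these calls was not tested.

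Genes of cell shape and matrix were found on both sides. FN1, fibronectin (chr2:215360440-215436172, minus strand), rose in 22Rv1 from 26.5 and 25.3 CPM to 88.6 and 111 CPM and was at 35.3 and 36.5 CPM (eGFP) against 29.5 and 28.9 CPM (ETV4WT) in PC3. FN1 had a line difference of 2.24 ± 0.19 (SE, adjusted p = 2.56e-05). CD44, a receptor for hyaluronan, rose in 22Rv1 from 120 and 129 CPM to 255 and 249 CPM and was at 401 and 395 CPM (eGFP) against 317 and 359 CPM (ETV4WT) in PC3. For CD44 the line difference was 1.25 ± 0.16 (SE, adjusted p = 0.000333). DSP, the desmosome protein desmoplakin, was at 129.7 and 133 CPM (eGFP) against 87.02 and 121 CPM (ETV4WT) in 22Rv1 and rose in PC3 from 8.62 and 10.1 CPM to 51.6 and 60.3 CPM. DSP had a line difference of -2.91 ± 0.24 (SE, adjusted p = 2.7e-05). The epithelial splicing regulators parted: ESRP1 rose in PC3 from 20.1 and 19.8 CPM to 37.2 and 50.3 CPM (line difference -1.43 ± 0.20 SE, adjusted p = 0.000803) and ESRP2 fell there from 66.03 and 71 CPM to 25.1 and 20.7 CPM (line difference 1.5 ± 0.24 SE, adjusted p = 0.00182). Of 33 epithelial junction genes 6 were higher and 3 lower, beside 4.92% and 7.57% of all genes, with a median of 0.42. Of 35 mesenchymal and matrix genes 4 were higher and 4 lower, beside the same shares of all genes, with a median of 0.34. The higher 4 became 8 without PC3 ETV4WT replicate 1, and the lower 4 became 1 or 2 without either PC3 eGFP library, PC3 ETV4WT replicate 2, 22Rv1 eGFP replicate 2 or 22Rv1 ETV4WT replicate 1. VIM, vimentin, was not called and lay between 6.24 and 7.75 CPM in 22Rv1 and between 473 and 577 CPM in PC3. LTBP1, which holds latent TGF-beta in the matrix, was at 13.9 and 14.02 CPM (eGFP) against 8.95 and 10.6 CPM (ETV4WT) in 22Rv1 and rose in PC3 from 323 and 313 CPM to 517 and 531 CPM. For LTBP1 the line difference was -1.24 ± 0.17 (SE, adjusted p = 0.000537).

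Among metabolic lists, 5 of 26 NRF2 antioxidant genes were higher and 1 lower, 4 of 31 genes of sterol and fatty acid synthesis were higher and none lower, and 2 of 31 genes of oxidative phosphorylation were higher and none lower. The NRF2 count became 2 or 3 in every fit without 1 library other than PC3 ETV4WT replicate 1, where it became 10. NQO1, a quinone reductase, was at 25.7 and 28.6 CPM (eGFP) against 43.96 and 36.2 CPM (ETV4WT) in 22Rv1 and fell in PC3 from 192 and 190.4 CPM to 116 and 126 CPM. NQO1 had a line difference of 1.22 ± 0.18 (SE, adjusted p = 0.000988). ALDH3A1, an aldehyde dehydrogenase, fell in PC3 from 8.47 and 9.71 CPM to 0.818 and 0.362 CPM and stayed under 1 CPM in 22Rv1 (line difference 3.15 ± 0.53 SE, adjusted p = 0.00234). The sterol count became 1 or 2 without PC3 eGFP replicate 2, PC3 ETV4WT replicate 2, 22Rv1 eGFP replicate 2 or either 22Rv1 ETV4WT library, and 9 without PC3 ETV4WT replicate 1. The 2 of oxidative phosphorylation became 5 without PC3 ETV4WT replicate 1 and 0 without any other library but 22Rv1 ETV4WT replicate 2.

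All 34 ribosomal protein genes had a positive line difference, with a median of 0.78, and 9 were called higher. That count became 24 without PC3 ETV4WT replicate 1 and 0 without any other library but 22Rv1 ETV4WT replicate 2, and with upper-quartile scaling it was 1. RPL12, of the large subunit, was at 1701 and 1611 CPM (eGFP) against 2974 and 2323 CPM (ETV4WT) in 22Rv1 and at 1133 and 1189.7 CPM (eGFP) against 1118 and 926 CPM (ETV4WT) in PC3. For RPL12 the line difference was 0.86 ± 0.21 (SE, adjusted p = 0.0204). Of 13 mitochondrial transcripts 0 were called for the line difference by edgeR, 1 was higher at an unadjusted p under 0.05, and limma-voom called that many and DESeq2 0.

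Some line-dependent genes were expressed in 1 line. LRRC15, a membrane protein known from matrix-rich tumours (chr3:194355247-194369743, minus strand), stayed at or under 0.226 CPM in 22Rv1. In PC3 it went from 0.0403 and 0.08596 CPM with eGFP to 60.1 and 51.6 CPM in the libraries labelled ETV4WT, log2 9.75 ± 0.36 (SE, adjusted p = 1.33e-07), and it had 68.7 and 60.1 CPM with ETV4AAA against the same eGFP libraries. Its line difference was -9.71 ± 0.74 (SE, adjusted p = 1.93e-05). HR, a nuclear corepressor, had the reverse order in PC3, from 19.1 and 20.4 CPM to 2.36 and 1.03 CPM, beside 0.574 and 0.432 CPM (eGFP) against 0.653 and 1.31 CPM (ETV4WT) in 22Rv1 (line difference 4.50 ± 0.66 SE, adjusted p = 0.000942). HAPLN1, a link protein of hyaluronan and aggrecan, was abundant in PC3 at 360.3 and 366 CPM (eGFP) against 357 and 437 CPM (ETV4WT), and in 22Rv1 had 27 counts against 1, a ratio of 27.7 (95% interval 4.56 to 1133). LPL, lipoprotein lipase, had 40 counts in the PC3 libraries labelled ETV4WT against 0, at least 12.4-fold higher (0 taken as 3 counts in the 2 libraries together), beside 4.08 and 4.55 CPM (eGFP) against 5.83 and 5.84 CPM (ETV4WT) in 22Rv1. NKILA, a long noncoding RNA that lies beside PMEPA1, had 20 counts against 0, at least 6.19-fold higher, and between 14.8 and 15.6 CPM in 22Rv1; since the strand setting of the counting is not known, reads of NKILA and PMEPA1 may have been mixed where they overlap. LPL and NKILA were near 0 in PC3 and present in 22Rv1, HAPLN1 was near 0 in 22Rv1 and abundant in PC3, and the part that small amounts of the other line's genes had in their calls was not tested.

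Of the 66 genes called in both lines in opposite directions (0.284% of genes tested), 28 rose in 22Rv1 and fell in PC3 and 38 did the reverse. The count was 22 without 22Rv1 ETV4WT replicate 1, 26 and 29 without either 22Rv1 eGFP library and 31 and 33 without either PC3 eGFP library. FAIM2, an inhibitor of death receptor signalling in neurons (chr12:49866896-49904217, minus strand), rose in 22Rv1 from 5.11 and 4.71 CPM to 36.03 and 39.1 CPM and in PC3 had 1 count against 12, a ratio of 0.0774 (95% interval 0.00181 to 0.523). Its line difference of 6.31 ± 0.79 (SE, adjusted p = 0.000306) is a fitted value that depends on the group with 1 count, and its call in PC3 was lost without PC3 ETV4WT replicate 2 or PC3 eGFP replicate 2 (adjusted p of up to 0.0968). NPR1, a receptor for natriuretic peptides, went from 3.18 and 2.31 CPM to 7.14 and 8.08 CPM in 22Rv1 and from 0.282 and 0.193 CPM to 0.0372 and 0.0603 CPM in PC3, a line difference of 3.72 ± 0.52 (SE, adjusted p = 0.000742), with the PC3 call lost without PC3 eGFP replicate 1 (adjusted p of up to 0.0725). On the other side, JDP2, a repressor of AP-1, went from 5.74 and 5.21 CPM to 1.44 and 1.35 CPM in 22Rv1 and from 0.181 and 0.04298 CPM to 1.04 and 0.724 CPM in PC3, a line difference of -4.90 ± 0.51 (SE, adjusted p = 8.86e-05), with the 22Rv1 call lost without 22Rv1 ETV4WT replicate 1 (adjusted p of up to 0.0634). TIMP3, an inhibitor of metalloproteinases, went from 0.656 and 0.453 CPM to 0.152 and 0.204 CPM in 22Rv1 and from 0.805 and 0.752 CPM to 6.37 and 6.07 CPM in PC3, a line difference of -4.61 ± 0.35 (SE, adjusted p = 1.93e-05), with the 22Rv1 call lost without either 22Rv1 ETV4WT library or 22Rv1 eGFP replicate 1 (adjusted p of up to 0.216). In SOD3, given above, the 22Rv1 call was lost without either 22Rv1 ETV4WT library or either 22Rv1 eGFP library (adjusted p of up to 0.273) and the PC3 call without PC3 ETV4WT replicate 2 or PC3 eGFP replicate 2 (adjusted p of up to 0.135). The line differences of these 5 genes were called in all 8 fits without 1 library.

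The shared response was small in number of genes. In both lines 61 genes rose (0.263% of genes tested) and 16 fell (0.0689%), which together are 22.1% of the genes called in 22Rv1 and 1.42% of those called in PC3. Of the 246 genes that rose in 22Rv1, 61 also rose in PC3, where 12.7% of all genes rose. Of the 102 that fell in 22Rv1, 16 also fell in PC3, where 10.7% of all genes fell. Of the 77 shared genes, 70 (90.9%) were protein-coding and 47 were at 1 CPM or more in both lines. The size of the change was larger in PC3 in 35 of 77, and 23 (29.9%) were also called for the line difference, 13 of them with the larger change in PC3. The 61 became 28 without 22Rv1 ETV4WT replicate 1, 23 and 30 without either 22Rv1 eGFP library, and 35 and 36 without either PC3 eGFP library. Without the same 5 libraries the 16 became 0, 1 and 0, and 1 and 2. By list, 3 ERK output genes rose in both lines, 2 MHC class I genes, 2 p53 targets and 1 gene each of the basal, cell cycle inhibitor and TGF-beta lists.

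COL2A1, the chain of type II collagen (chr12:47972965-48004554, minus strand), had the largest shared rise at 1 CPM or more, by the smaller of its 2 changes. It rose in 22Rv1 from 1.42 and 1.21 CPM to 10.8 and 14 CPM, log2 3.23 ± 0.26 (SE, adjusted p = 5.18e-05), and in PC3 from 1.45 and 1.74 CPM to 10.6 and 7.32 CPM, log2 2.49 ± 0.25 (SE, adjusted p = 3.25e-05). Both lines began and ended near one another, and the line difference did not pass the test (0.75 ± 0.36 SE, adjusted p = 0.194). PLK2, a kinase of the stress and cell cycle response (chr5:58453982-58460260, minus strand), rose in 22Rv1 from 2.34 and 3.05 CPM to 7.64 and 7.88 CPM and in PC3 from 29.99 and 28.1 CPM to 64.1 and 77.1 CPM. PLK2 had a line difference of 0.24 ± 0.21 (SE, adjusted p = 0.47). These rises were called in all 8 fits without 1 library.

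LAMB3, a chain of the basement membrane protein laminin 332 (chr1:209614870-209652466, minus strand), went from 4.57 and 2.72 CPM to 9.32 and 10.7 CPM in 22Rv1 and from 15.7 and 16.6 CPM to 53.3 and 33.4 CPM in PC3, with nearly equal changes of log2 1.46 ± 0.30 (SE, adjusted p = 0.0346) and 1.43 ± 0.28 (SE, adjusted p = 0.0033). The 22Rv1 call was lost without either 22Rv1 ETV4WT library, either 22Rv1 eGFP library or either PC3 eGFP library (adjusted p of up to 0.342). TESC, a calcium-binding protein, went from 2.38 and 2.35 CPM to 22.6 and 20.8 CPM in 22Rv1 and from 0.161 and 0.129 CPM to 0.595 and 0.342 CPM in PC3, where the call was lost without PC3 ETV4WT replicate 1 or either PC3 eGFP library (adjusted p of up to 0.146). DGKG, a diacylglycerol kinase, rose in both and more so in 22Rv1, from 0.595 and 0.391 CPM to 2.68 and 2.84 CPM there and from 18.5 and 18.5 CPM to 41.5 and 44.98 CPM in PC3, with a called line difference of 1.25 ± 0.25 (SE, adjusted p = 0.00743). MYL10, a myosin light chain, had 20 counts against 0 in 22Rv1, at least 6.84-fold higher, and rose in PC3 from 0.845 and 0.989 CPM to 45.2 and 33.2 CPM, with the 22Rv1 call lost without 22Rv1 ETV4WT replicate 1 or either 22Rv1 eGFP library (adjusted p of up to 0.177).

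Among the 16 shared falls were HOXA13, DTL and LGR5. HOXA13, a homeobox factor of the caudal body (chr7:27193503-27200106, minus strand), went from 10.2 and 10.8 CPM to 5.33 and 5.27 CPM in 22Rv1 and from 56.3 and 53.6 CPM to 21.7 and 26.8 CPM in PC3. For HOXA13 the line difference was 0.19 ± 0.22 (SE, adjusted p = 0.603). Every ETV4WT library was below every eGFP library of its line, as the rule for naming shared genes required. The 22Rv1 call of HOXA13 was lost without 22Rv1 ETV4WT replicate 1 or 22Rv1 eGFP replicate 2 (adjusted p of up to 0.0625). DTL, a ubiquitin ligase adaptor of S phase (chr1:212035553-212107400, plus strand), went from 94.1 and 107 CPM to 65.1 and 67.4 CPM in 22Rv1 and from 246 and 241 CPM to 135 and 158 CPM in PC3 (line difference 0.13 ± 0.17 SE, adjusted p = 0.676), with the 22Rv1 call lost without either 22Rv1 ETV4WT library, either 22Rv1 eGFP library or either PC3 eGFP library (adjusted p of up to 0.195). LGR5, a receptor for R-spondins that marks epithelial stem cells, went from 9.54 and 10.3 CPM to 5.46 and 5.63 CPM in 22Rv1 and further in PC3, from 12.8 and 14.4 CPM to 2.69 and 3.598 CPM, with a called line difference of 1.27 ± 0.24 (SE, adjusted p = 0.00532). Its 22Rv1 call was lost without either 22Rv1 ETV4WT library, either 22Rv1 eGFP library or either PC3 eGFP library (adjusted p of up to 0.234).

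**Figure D5:**
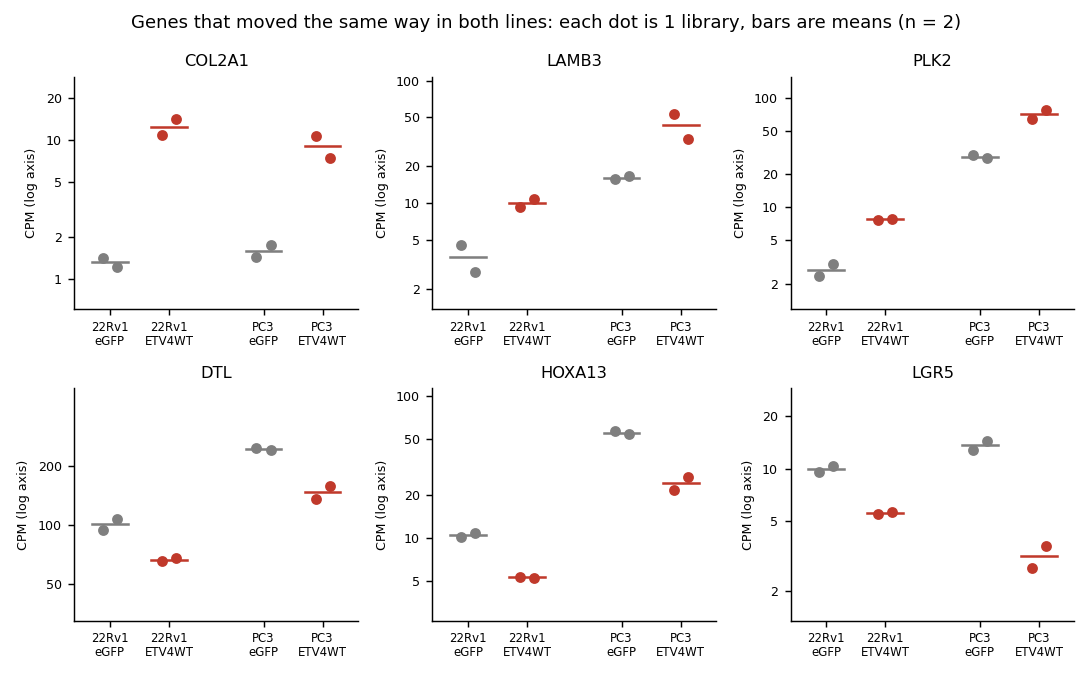
CPM in each library (log axis; dots are libraries, bars are means of 2, grey eGFP and red ETV4WT) for COL2A1, LAMB3 and PLK2, which rose in both lines, and DTL, HOXA13 and LGR5, which fell in both. In each line the ETV4WT libraries lie on 1 side of the eGFP libraries in all 6 genes, which was a condition for naming shared genes. Of all 23238 genes tested, 10569 had no such overlap of groups in 22Rv1 and 14878 had none in PC3.

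The start regions of line-dependent and shared genes were searched for the ETS core CCGGAAG on both strands. It was present in 110 of 840 windows of genes called higher (13.1%), in 126 of 1132 of genes called lower (11.1%) and in none of 46 of genes that rose in both lines, beside 2146 of all 13035 windows (16.5%). With the shorter letters GGAAG the shares were 73.8%, 73.3%, 73.9% and 75.2%. The AP-1 letters TGANTCA were present in 5.95% of genes called higher and 4.95% of genes called lower, beside 5.28% of all, and in 4 of 17 genes of the ERK output list (23.5%). Lack of a match says only that these letters are not in this window.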

How the data were processed

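The deposited table holds, per the file's values, raw counts of reads per Ensembl gene, whole numbers for 58302 genes in 12 libraries, made by the authors before deposit; 0 columns belonged to no listed sample. Per the submitters' processing notes, FastQC 0.11.9 and the aligner STAR 2.5.3a were used, with the build GRCh38. The program that counted the reads, with its strand setting and annotation, was not given in the sources used here. Symbols and positions were taken from GENCODE 29, which holds 99.55% of the IDs.

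Counts were analysed in R 4.3.3 with edgeR 4.0.16: filterByExpr by group kept 23238 genes, libraries were scaled with TMM factors, and a model with a mean for each of the 6 groups was fitted over the 12 libraries with the quasi-likelihood test (6 residual degrees of freedom, biological coefficient of variation 0.149), without the replicate number as a block. Effects of ETV4WT in each line and their difference were tested as contrasts and adjusted over all genes, with a threshold of 0.05. On simulated counts with 200 changed genes among 21981 tested, the line difference was recovered in 25 of 107 genes changed by log2 1 (23.4%) and in 88 of 93 changed by log2 2 (94.6%), with 9 false calls. These counts were drawn independently, with 1 spread per gene for all groups. The real libraries differ in spread by group and share deviations across genes, so these rates need not hold for them. For a group with 0 counts a fold is a lower bound, with 0 taken as 3 counts in both libraries together, and from 1 to 3 counts the ratio of pooled counts is given with an exact 95% interval; reads carry no molecular identifiers, so these cover counting error only.

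The 30 gene lists (713 genes), the rules and the genes were chosen with earlier results of these data known. Some genes were named among those that averaged 5 CPM in 1 or more of the 4 groups. They were the 12 largest called differences each way at 1 CPM in both lines and the 4 each way under 1 CPM in 1 line. The 5 opposite each way and the 10 shared each way were added. Without the 5 CPM condition, each list gave up to 4 called members of lowest p and the uncalled member of highest CPM. ETV4, ETV1 and ETV5 were always named. Others are marked as named after their values were seen, and KLK3, CD3D, MS4A1 and TYROBP serve as markers. Some genes that the rule selects are not reported here. Promoter windows of 13035 tested genes are from RefSeq, matched by symbol. Alternatives, 16 planned and 1 added, included DESeq2 1.42.0, limma-voom (limma 3.58.1), other scalings and filters, a replicate block and each library left out. The 4 ETV4AAA libraries entered the fit and no comparison.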

Additional observations from a re-analysis of the deposited data

Results flagged for a closer look

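The difference between the lines was itself tested, as a contrast of the 2 effects in edgeR's quasi-likelihood fit, and it passed in 2903 genes. Of all 23238 genes tested, 66 (0.284%) were called in both lines in opposite directions. Groups did not overlap in 10569 of the genes tested in 22Rv1 and in 14878 in PC3. The naming rule selected 177 genes, some of them for large line differences, opposite calls or lack of overlap, so their share is no finding. Of the 177, 21 were called in both lines in opposite directions. In these 21 both ETV4WT libraries lay on 1 side of the eGFP libraries in 22Rv1 and on the other in PC3. More upward in 22Rv1 were 12: FAIM2 (line difference 6.31), RIPOR2 (5.90), KCNN4 (3.89), NPR1 (3.72), CYP1B1 (3.53), FAM131B (3.45), SOD3 (3.30), P2RY1 (3.20), ACPP (2.23), HSPA8 (2.20), TWIST1 (2.16) and CA12 (1.60). More upward in PC3 were 9: CHAC1 (-6.93), BEST1 (-5.81), JDP2 (-4.90), TIMP3 (-4.61), ALDH1L2 (-4.02), ASNS (-3.96), SLC7A11 (-2.88), PSAT1 (-2.32) and ETV5 (-2.01). Leaving out 1 library ended the call within 22Rv1 or PC3 for 11 of the 21 (ALDH1L2, ASNS, CA12, CHAC1, FAIM2, HSPA8, JDP2, KCNN4, NPR1, SOD3 and TIMP3) and the line difference for 0. In FAIM2 the PC3 side rests on 1 count against 12, and of the PC3 libraries labelled ETV4WT, replicate 2 held no more ETV4 than the eGFP libraries.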

How the results depend on the processing

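No called change of a named gene reversed its sign under the alternatives run. The balance of the calls did turn: higher line differences outnumbered lower ones, and falls in PC3 outnumbered rises, with the replicate block, without PC3 ETV4WT replicate 1 (2297 higher, 2045 lower; 3077 risen, 3188 fallen) and with the crossed pairing below. The named genes' changes kept their side of the threshold in 4769 comparisons with an alternative and lost it in 529. When any 1 library was left out, 40 of 127 named line differences were not called in 1 or more of the 8 fits, as were 28 of 129 named changes in PC3 and 29 of 56 in 22Rv1. For the 22 main values, 238 comparisons with an alternative lay within 1.5 times of the reported value and 120 did not, and for the counts within gene lists 1501 did and 522 did not.

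Upper-quartile scaling left 731 higher line differences and 8 higher heat shock genes. Without a filter on low counts 4436 line differences were called, 2048 higher, with 2942 at 1 CPM in both lines; 904 genes were called in 22Rv1 (628 risen, 276 fallen), 118 rose in both lines, 219 were opposite and 249 were called in 22Rv1 alone. The split of calls moved from 60.6% lower to 53.8% without that filter, 70.7% with a floor of 1 CPM, 65.9% with DESeq2's size factors and 49.0% with the replicate block. The shorter ETS core was present in 75.2% of windows.

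Leaving out 1 library gave 1425 to 4342 line differences (414 to 2297 higher, 1008 to 2045 lower), 119 to 386 calls in 22Rv1 (90 to 268 risen, 18 to 118 fallen), 2553 to 6265 in PC3 (1684 to 3077 risen, 869 to 3188 fallen) and 896 to 3283 line differences at 1 CPM in both lines. The shared rises were 23 to 61, the shared falls 0 to 16 and the opposite genes 22 to 72. Genes called in PC3 alone were 1172 to 3622, in 22Rv1 alone 46 to 132, in the same direction 6 to 24 and in neither 91 to 500. Of the lists, 7 to 14 heat shock genes and 9 to 20 hypoxia genes were higher and 24 to 28 amino acid stress genes lower. Fits with fewer libraries have fewer degrees of freedom.

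The replicate number does not mark a shared culture or day in the labels, and deviations of same-numbered libraries correlated at -0.446 between the eGFP and ETV4WT groups of 22Rv1 and at -0.618 in PC3. Over the 15 pairs of the 6 groups 7 correlations were positive, up to 0.956 between PC3 ETV4WT and PC3 ETV4AAA, with 0.863 between 22Rv1 eGFP and PC3 ETV4WT. With the number as a block 3658 line differences were called, 1865 of them higher and 1793 lower, with 351 calls in 22Rv1 and 6296 in PC3 (3010 risen, 3286 fallen). A crossed pairing of PC3 eGFP and 22Rv1 ETV4WT, chosen after seeing the data, gave 6886 line differences (4012 higher, 2874 lower; 5344 at 1 CPM in both lines), 1905 calls in 22Rv1 (1141 risen, 764 fallen), 9071 in PC3 (4061 risen, 5010 fallen), 228 shared rises, 209 shared falls, 472 opposite genes, and 5252 called in PC3 alone, 491 in 22Rv1 alone, 116 in the same direction and 555 in neither. Where no cause is named, the cause was not tested.

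With 2 libraries a group, changes near log2 1 were mostly missed in simulated data, so a gene not called is not shown to respond alike in both lines. Genes under 1 CPM in a line rest on few counts.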
